A study of Homo sapiens with 6 samples.

Results

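Split and joined peaks are accessible regions that are unbroken under one condition and broken into pieces under the other. A control peak was counted as split where it overlapped, by at least 1 bp, 2 or more peaks of cells in which HMGA1 was silenced (shHMGA1). An shHMGA1 peak was counted as joined where it overlapped 2 or more control peaks. On chromosomes 1 to 22 the rule gave 4507 split peaks among 125104 control peaks (3.6%) and 4143 joined peaks among 110930 shHMGA1 peaks (3.73%). Together these are 8650 of 236034 peaks (3.66%). The members were chosen by the overlap of their positions with the other list, so their numbers, widths, gaps and covered bases are descriptions and carry no test.

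The cells were of the DAMI line, a human leukaemia line whose labels give the disease as MPN/AML, where MPN stands for myeloproliferative neoplasm. The 3 control samples were infected with a control lentivirus and the 3 shHMGA1 samples with a lentivirus against HMGA1. The sources used here do not state the hairpin sequence, the time after infection or the extent of silencing. Each group of 3 samples was deposited as 1 peak list, so no difference between the lists has a replicate check, and depth is unknown. With peaks alone, the labelled cell type and the silencing could not be checked against expression.

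HMGA1 is an architectural protein that binds the minor groove of AT-rich DNA through its AT-hook motifs and takes part in bending DNA and assembling protein complexes at regulatory sites. ATAC-seq reads such sites through the Tn5 transposase, which inserts adapters where DNA is free of nucleosomes. A peak caller turns the insertions into intervals, and peak callers commonly join significant stretches across short distances. Whether 1 broad accessible domain is listed as 1 peak or as several neighbours therefore depends on short stretches of weak signal inside it. No base sequence is shown, because no hg19 genome was used here, and genes at the sites were not annotated.

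Most members were broken only once. Of the split peaks, 4130 (91.6%) lay over 2 shHMGA1 pieces, 332 over 3, 36 over 4, 7 over 5 and 2 over 6. Of the joined peaks, 3801 (91.7%) lay over 2 control pieces, 295 over 3, 42 over 4 and 5 over 5. The pieces under split peaks made up 9295 shHMGA1 peaks (8.38% of that list), and those under joined peaks 8540 control peaks (6.83%). The rule needs only 1 bp, but few members rested on that. The second longest overlap was at most 10 bp in 29 split and 32 joined peaks, and at least 100 bp in 4110 (91.2%) and 3680 (88.8%). Just outside the rule, 24 control and 25 shHMGA1 peaks overlapped 1 peak and had another within 10 bp of their edge.

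Members were broad regions. Split peaks had a median width of 1575 bp (quartiles 1076 and 2384), against 527 bp for all control peaks and 586 bp for control peaks in regions with exactly 1 peak in each list. Joined peaks had a median of 1446 bp (quartiles 920.5 and 2304.5), against 540 bp for all shHMGA1 peaks and 562 bp in regions with 1 peak in each. The broadest split peak measured 18918 bp and the broadest joined peak 26896 bp. A peak must hold at least 2 pieces and a gap to be a member, so breadth is in part fixed by the rule. An alternative kept only peaks from a summit −log10 p of 5.23, the median of both lists together. Medians rose there, and the joined median was the larger (2333 bp split, 2410 bp joined). So it was among the 55465 top-ranked peaks of either list (2332 and 2617.5 bp). The same held after merging peaks within 150 bp (2117 and 2160.5 bp) or 300 bp (2566 and 2736 bp). The intervals of the split and joined medians overlapped in each of these settings, for instance 2216 to 2467 and 2297 to 2564 bp in the first. Which class is the broader was therefore not settled there. Split peaks covered 8.99 Mb, or 10.1% of all bases in control peaks, and joined peaks 8.02 Mb, or 9.90% of all bases in shHMGA1 peaks.

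The share of peaks that were split or joined was higher in each wider class of both lists. Among control peaks of 500 to 749 bp, 1.34% were split (95% Wilson interval 1.21 to 1.49), and among those of 1000 to 1499 bp 8.21% (7.77 to 8.69). Among control peaks of at least 5000 bp, 202 of 345 were split (58.6%, interval 53.3 to 63.6). The shHMGA1 peaks gave nearly the same course, with 2.04% joined at 500 to 749 bp (1.87 to 2.22), 7.58% at 1000 to 1499 bp (7.12 to 8.05) and 198 of 335 (59.1%, 53.8 to 64.2) from 5000 bp. Below 1000 bp joined peaks were the more frequent, apart from 1 joined against 6 split peaks under 300 bp, and from 1000 to 4999 bp split peaks were. Intervals here and below cover counting error only.

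**Figure D1:**
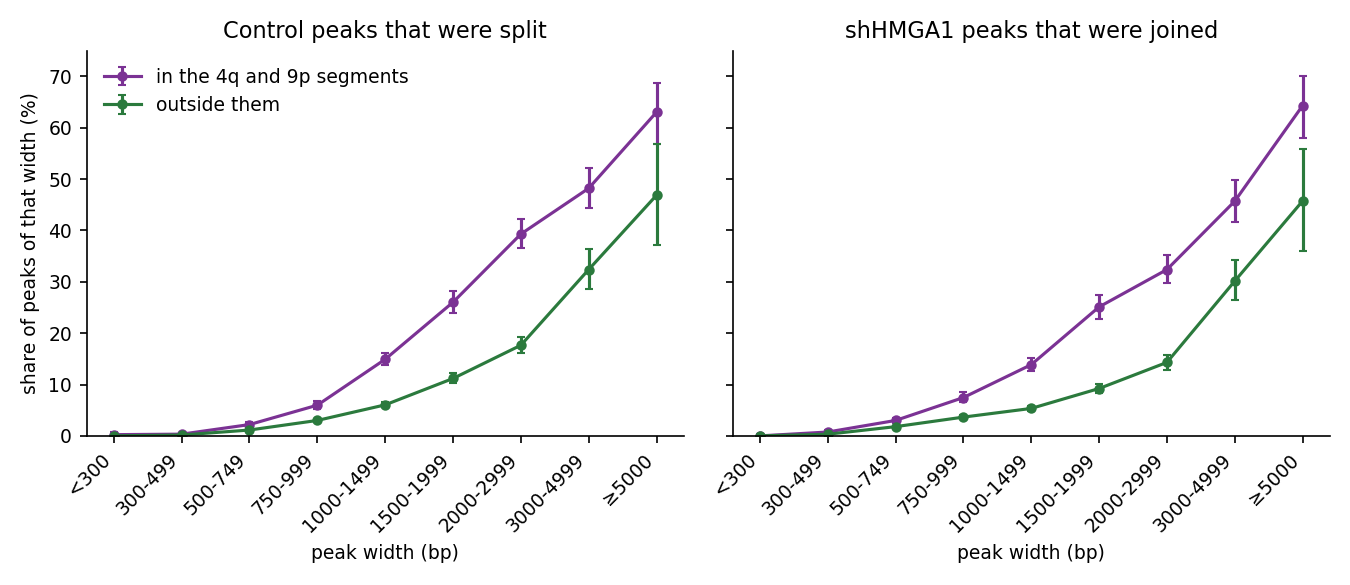
Share of control peaks that were split (left) and of shHMGA1 peaks that were joined (right) in each class of peak width in bp, with 95% Wilson intervals. Both lists show higher shares with greater width, and at widths of 750 bp and more peaks in the dense 4q and 9p segments lie above those elsewhere; from 5000 bp the shares are 63.1% and 46.9% for split and 64.3% and 45.7% for joined peaks.

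The gaps between pieces were short. In split peaks the 4940 gaps had a median of 130 bp (quartiles 112 and 193), and in joined peaks the 4537 gaps had a median of 126 bp (quartiles 110 and 172). The shortest gap was 101 bp in both, which was also the shortest distance between any neighbouring peaks of either list. Gaps of at most 150 bp made up 62.9% in split and 67.4% in joined peaks, and gaps of at most 500 bp 95.1% and 96.0%. Over all neighbouring peaks the median distance was 6188.5 bp in control and 7060 bp in shHMGA1. Gaps between pieces must fit within the peak that covers them, so their shortness is in part fixed by the rule. Gaps over 1000 bp numbered 21 in split and 10 in joined peaks.

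Counting gaps in place of peaks set the conditions side by side without the widths. Of 6182 shHMGA1 gaps of 101 to 150 bp, a single control peak lay across 3107 (50.3%, Wilson interval 49.0 to 51.5). Of 7609 control gaps of that length, a single shHMGA1 peak lay across 3059 (40.2%, 39.1 to 41.3). The share was the higher for control peaks in each length class, with 30.8% against 23.4% at 151 to 200 bp and 11.5% against 7.38% at 301 to 500 bp. Much of this difference lay in gaps whose flanks were missing from the other list. Of the short control gaps, 1693 (22.25%) had only 1 flank overlapped by an shHMGA1 peak and 466 (6.12%) had neither. Of the short shHMGA1 gaps, 842 (13.6%) and 161 (2.60%) were of these kinds. Where both flanks were overlapped, control peaks lay across 60.0% (58.7 to 61.3) and shHMGA1 peaks across 56.1% (54.8 to 57.4). In the remaining 2072 shHMGA1 and 2391 control gaps with both flanks overlapped, different peaks of the other list overlapped the flanks. Whether the other list broke within the gap itself or inside a flank was not examined.

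**Figure D2:**
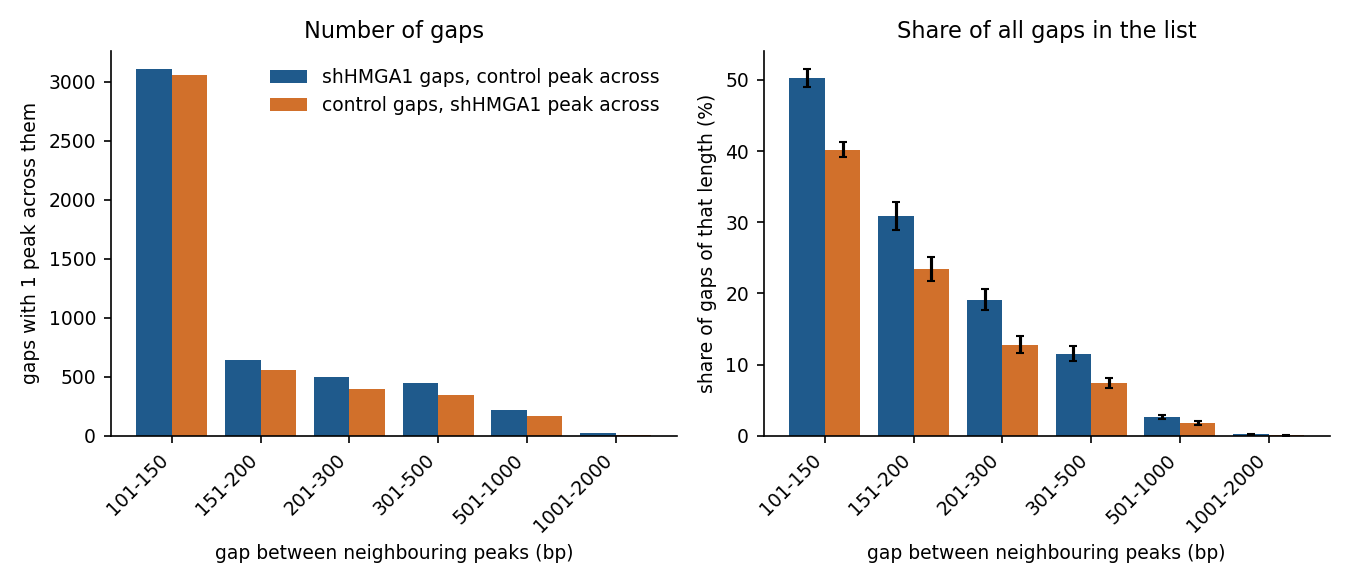
Gaps between neighbouring peaks of 1 list that are covered by a single peak of the other, by gap length in bp, as numbers (left) and as a share of all gaps of that length (right, 95% Wilson intervals). Most covered gaps are 101 to 150 bp long, and control peaks lie across 50.3% of these shHMGA1 gaps against 40.2% for the reverse.

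Most of the bases of a broken region stayed within a peak. The pieces covered a median of 83.8% of a split peak (quartiles 73.2 and 90.5) and 84.3% of a joined peak (75.8 and 90.7). Over all members, 7568 of 8993 kb of split peaks (84.2%) and 6866 of 8017 kb of joined peaks (85.6%) were also called under the other condition. At least 90% of the bases were kept in 1206 split and 1163 joined peaks, and under 50% in 153 and 103. Peaks of at least 1 kb in regions with 1 peak in each list kept a median of 93.5% in control and 96.5% in shHMGA1, against 86.2% for split and 88.0% for joined peaks of that width. A member must hold an uncovered gap between pieces, and a peak with 1 partner has none. This difference is therefore in part fixed by the rule.

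The strongest point of the region mostly stayed within a called piece. The summit of the unbroken peak fell inside a piece in 4425 split (98.2%) and 4069 joined peaks (98.2%), and in a gap in 62 and 59. It fell inside the longest piece in 75.6% and 76.1%, and inside the most significant piece in 76.7% and 75.9%. Pieces covered most of the bases of these peaks, so most positions in them lie in a piece. No baseline was drawn for the summit. The longest piece covered a median of 54.4% of a split and 56.1% of a joined peak. The centre of the gap lay a median of 489.5 bp from the summit in split and 472 bp in joined peaks. The pieces often reached past the unbroken peak, on both sides in 1437 split (31.9%) and 1643 joined peaks (39.7%), while 938 (20.8%) and 621 (15.0%) held their pieces entirely within them.

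Within its own list a typical member ranked above the middle by the authors' summit −log10 p. Split peaks had a median percentile of 68.4 among control peaks and joined peaks 62.2 among shHMGA1 peaks, where the peaks of regions with 1 peak in each list had 62.7 and 57.9. The strongest piece had a median percentile of 65.5 in split and 67.1 in joined peaks. The weakest piece had 28.4 and 30.1, and it lay in the lower 50% of its list in 76.9% and 75.5%. Every piece was in the upper 50% in 1043 split and 1016 joined peaks. The weakest of several pieces ranks low, and the strongest high, through the choice itself. No baseline was drawn for that choice, so whether pieces differ in rank from other peaks was not tested. Heights were not compared between lists.

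Members formed 7270 groups of overlapping peaks. In 3267 groups a split peak stood alone with its pieces, and in 2915 a joined peak did. The other 1088 groups (15.0%) held both, with breaks at different places under the 2 conditions. Accordingly 1240 split peaks (27.5%) had a piece that was itself joined, and 1228 joined peaks (29.6%) a piece that was itself split. Over all groups, 3444 held more shHMGA1 than control peaks, 3080 held more control peaks and 746 held equal numbers. The group with most peaks was on chromosome 9 from 13372185 to 13388485 (hg19), with 7 control and 4 shHMGA1 peaks, of which 3 were split and 3 joined.

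Of the 9 split peaks with 5 or 6 pieces, 7 lay on 9p. On chromosome 9 from 11887315 to 11896060 (9p23), a control peak of 8746 bp lay over 6 shHMGA1 pieces, with gaps of 106, 115, 188, 722 and 678 bp and 79.0% of its bases kept. On chromosome 9 from 4637956 to 4643131 (9p24.1), a control peak of 5176 bp also lay over 6 pieces, but all 5 gaps were between 108 and 127 bp and 84.3% was kept. The other 7 held 5 pieces each, and the 3 broadest of them are described here. They lay at 9p22.1 (from 19005926, 16755 bp wide, 97.0% kept), at 9p22.3 (from 15902538, 93.4% kept) and at 4q35.2 (from 190608360, 91.7% kept). The last lies on distal 4q beyond the end of the dense segment described below.

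Joined peaks lay over at most 5 control pieces, which 5 of them did. On chromosome 9 from 11198880 to 11206411 (9p23), an shHMGA1 peak of 7532 bp lay over 5 control pieces, with a longest gap of 734 bp and 81.1% kept. Another at 9p23, from 12185874 to 12192541, lay over 5 control pieces with a longest gap of 708 bp and 83.1% kept. On chromosome 3 from 195217861 to 195222652 (3q29), an shHMGA1 peak of 4792 bp lay over 5 control pieces and kept 81.5%. The remaining 2 with 5 pieces were at 9p24.2 (from 2840632) and 9p22.3 (from 14996424). So these complex regions occurred in both directions, and both occurred at 9p23 within the same band.

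The longest gaps were mostly in peaks of middling significance. On chromosome 9 from 5900572 to 5905108 (9p24.1), a control peak of 4537 bp lay over 3 shHMGA1 pieces with a gap of 1498 bp, and 64.6% was kept. Control peaks at 4q35.2 (from 189426286), 9p24.2 (from 4502530), 9p22.3 (from 16018595) and 4q35.1 (from 183762298) had gaps of 1489, 1417, 1409 and 1326 bp. The second piece of the first of these, at 4q35.2, overlapped it by only 2 bp, so that peak was split under the 1-bp rule but not when 50 bp was required. The percentiles of these 5 peaks in their list ran from 46.2 to 75.2. The longest gap of all was in a joined peak on chromosome 9 from 139566641 to 139571058 (9q34.3), where 1818 bp separated 2 control pieces of 1021 and 760 bp and 40.3% was kept. Both of those pieces were weak, at percentiles 5.71 and 3.46 of the control list. A stronger case was the shHMGA1 peak at 19q13.2 (chromosome 19 from 39900090 to 39904432), at percentile 95.8, whose 2 control pieces were 1377 bp apart. Joined peaks at 4q34.1, 15q11.1 and 4q32.1 had gaps of 1474, 1440 and 1375 bp.

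**Figure D3:**
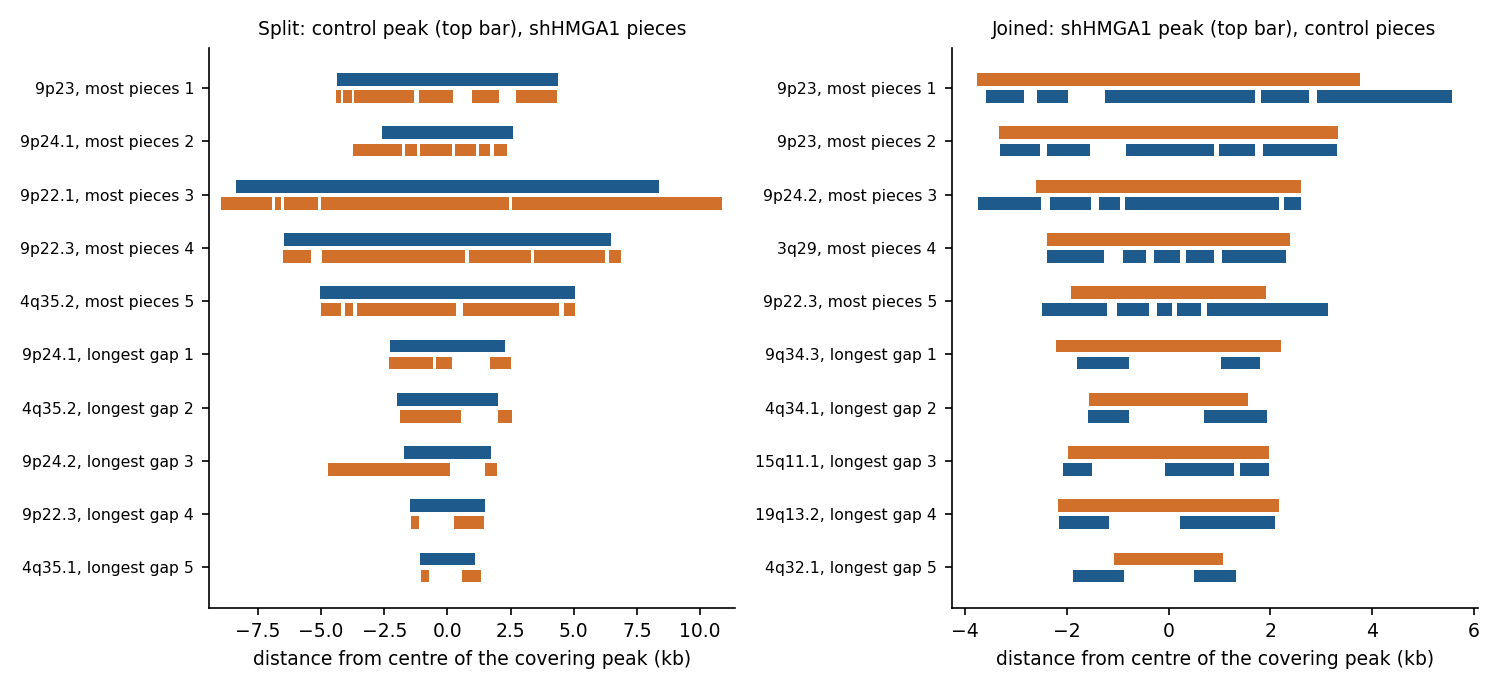
Split regions (left) and joined regions (right) named for most pieces or longest gap, each with the unbroken peak as the upper bar and the pieces of the other list as the lower bars, in kb from the centre of the unbroken peak. Regions with most pieces hold 5 or 6 pieces, mostly separated by narrow gaps, while those named for gap length have 1 gap of 1326 to 1818 bp.

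The most significant members kept most of their bases around a narrow break. The split peak with the highest summit, on chromosome 9 from 19046430 to 19056405 (9p22.1, summit −log10 p 30.2), lay over shHMGA1 pieces of 7122 and 2772 bp separated by 111 bp. Their percentiles were 99.95 and 63.2, and 98.6% was kept. The next split peaks were at 9p24.1, 9p22.1 and 9p22.3, with 98.5, 96.7 and 97.5% kept, and at 10q11.21, with 98.9% kept. The joined peak with the highest summit, on chromosome 9 from 4789481 to 4801608 (9p24.1, summit 34.8), lay over control pieces of 7199 and 4471 bp, separated by 176 bp and both strong (percentiles 99.98 and 99.87). Of the other 4 such joined peaks, 3 were on 9p. The remaining one, at 21q22.3 (chromosome 21 from 47599768 to 47605544), lay over a weak control piece at percentile 21.7 and a strong one at 99.97. These regions were named for their summits, and in all 10 at least 86.4% of the bases were kept.

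A pair of segments packed with peaks in both lists held much of both classes. On chromosome 4 from 154000001 to 189000000 (4q) there were 901 split and 812 joined peaks, and on chromosome 9 from 2000001 to 21000000 (9p) 1230 and 1147. Together they held 47.3% of split peaks and 47.3% of joined peaks, against 16.6% of all control and 17.4% of all shHMGA1 peaks. On 9p 15.5% of control peaks were split (Wilson interval 14.7 to 16.3) and 15.2% of shHMGA1 peaks joined (14.4 to 16.04). On 4q the rates were 7.03% (6.60 to 7.49) and 6.90% (6.46 to 7.37). Outside both segments they were 2.28% (2.19 to 2.37) and 2.38% (2.29 to 2.48). The rest of chromosome 9 had 203 split (5.01%) and 175 joined peaks (4.83%), and the rest of chromosome 4 had 148 (2.47%) and 132 (2.54%). These averages hide uneven rates, and high rates did not end at the segment borders. At 9p21.2 the rates were 12.6% and 15.2%, and on chromosome 4 beyond 190000001 they were 9.85% and 8.60%.

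Peaks of the segments were also broader, at a median of 911 bp on 9p and 674 bp on 4q in control, against 491 bp elsewhere. At the same width the rates still differed. Among control peaks of 1000 to 1499 bp, 14.9% were split in the segments (13.8 to 16.2) and 6.04% outside (5.60 to 6.52). Among shHMGA1 peaks of that width, 13.9% (12.7 to 15.1) and 5.35% (4.91 to 5.82) were joined. The gaps themselves were alike, with split medians of 133 bp on 9p, 134 bp on 4q and 127 bp elsewhere. Counted per gap of at most 150 bp, control peaks lay across 52.6% of shHMGA1 gaps in the segments and 48.3% outside. For shHMGA1 peaks across control gaps of that length, the shares were 45.5% and 36.4%. How far the closeness of neighbouring peaks in the segments accounts for the higher rates per peak was not tested. Split peaks kept a median of 87.9% of their bases on 9p, 82.0% on 4q and 82.1% elsewhere. The most affected stretch of 9p was 12000001 to 17000000, where 19.99% of control peaks were split and 19.6% of shHMGA1 peaks joined. On 4q the last stretch, 184000001 to 189000000, had the lowest rates, 4.40% and 4.12%.

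Splits exceeded joins in number but only slightly, and not as a share of each list. Split peaks made up 52.1% of all members (Wilson interval 51.1 to 53.2). As a share of its list the joined class was the larger, 3.73% (3.62 to 3.85) against 3.6% (3.50 to 3.71), and the intervals overlap. Among peaks overlapped at all by the other list, the order was the opposite, 4.79% split (4.66 to 4.93) against 4.39% joined (4.26 to 4.52). The order of the rates also turned with processing. Split peaks were the more frequent share of their list with 50% of each piece inside (2.56% against 2.41%), with equally many peaks taken from the top of each list (2.01% against 1.53%) and with neighbours merged within 150 bp (2.50% against 2.18%) or 300 bp (2.08% against 1.74%).

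Along the chromosomes, most split shares could not be told from the genome value, though intervals were wide where members were few. Split peaks outnumbered joined peaks on 15 of 22 chromosomes and joined peaks split peaks on 7. As a share of each list, splits were the higher on 9 and joins on 13. Chromosome 9 held 1433 split and 1322 joined peaks, chromosome 4 held 1049 and 944, and chromosome 1 held 302 and 292. The split share of members ran from 36.8% on chromosome 22 (7 split and 12 joined peaks) to 61.5% on chromosome 14 (40 and 25). The interval of chromosome 3 alone (152 and 109 peaks, 58.2%, 52.2 to 64.1) lay wholly above the genome value, and none lay below it. Set against 50%, or equal numbers, the interval lay above on 3 chromosomes and below on none. In the dense segments and outside them the split share was 52.1% in each.

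**Figure D4:**
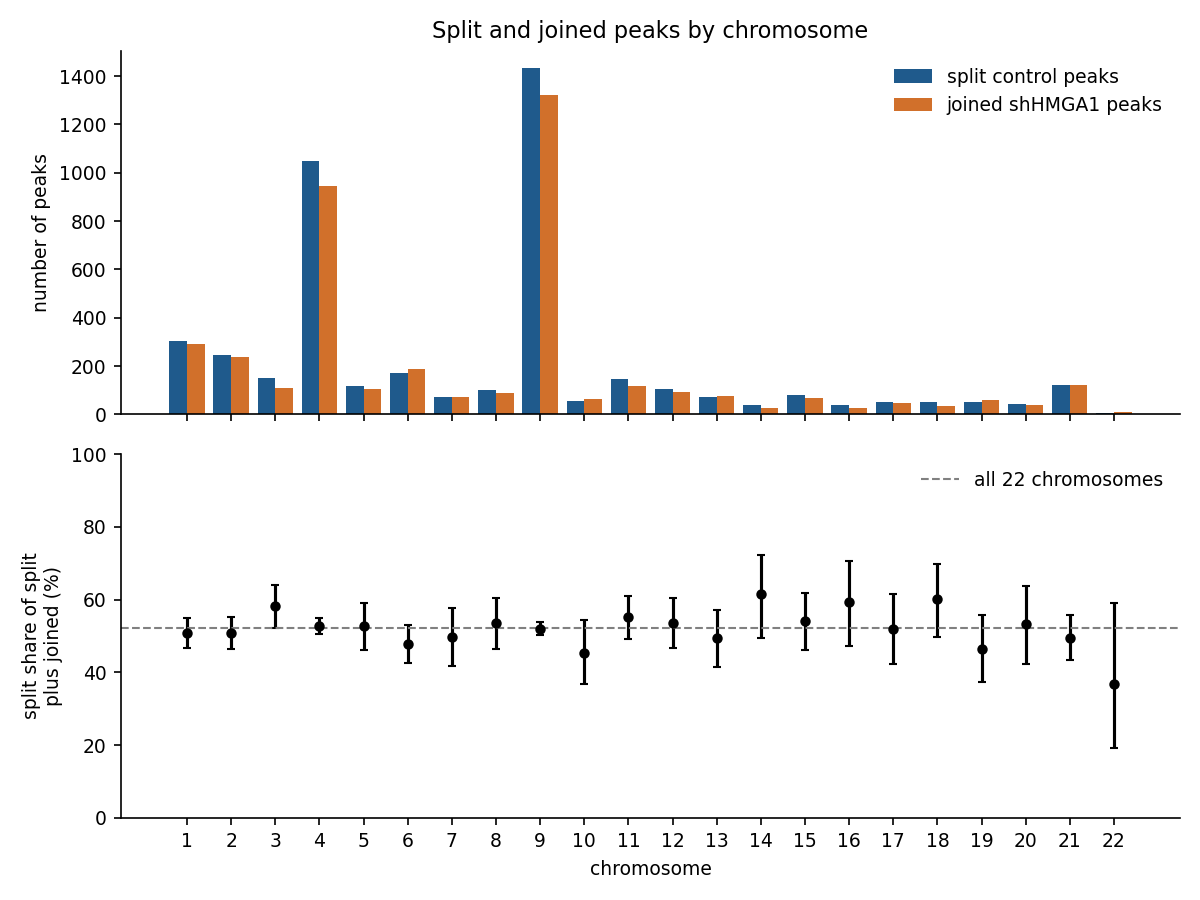
Number of split and joined peaks on chromosomes 1 to 22 (top), and the split share of their sum with 95% Wilson intervals (bottom, dashed line at the value of all 22 chromosomes). Chromosomes 9 and 4 hold most members of both kinds, and all intervals except that of chromosome 3 include the overall 52.1%.

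Smaller stretches gave the same picture. Of 77 windows of 10 Mb with at least 20 members, 43 held more split, 30 more joined and 4 equal numbers. The split share had a median of 51.9% and its interval lay above the genome value in 2 windows and below it in 2. Set against 50%, it lay above in 3 windows and below in none. The highest shares were on chromosome 9 from 30000001 to 40000000 (18 split and 5 joined peaks, 78.3%), on chromosome 1 from 140000001 to 150000000 (27 and 10) and on chromosome 3 from 1 to 10000000 (16 and 6). The lowest were on chromosome 1 from 20000001 to 30000000 and on chromosome 19 from 30000001 to 40000000 (6 split and 14 joined peaks in each), and on chromosome 1 from 190000001 to 200000000 (9 and 18). These windows were picked for their shares. How well reads map in them, or in the other named regions, was not examined.

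**Figure D5:**
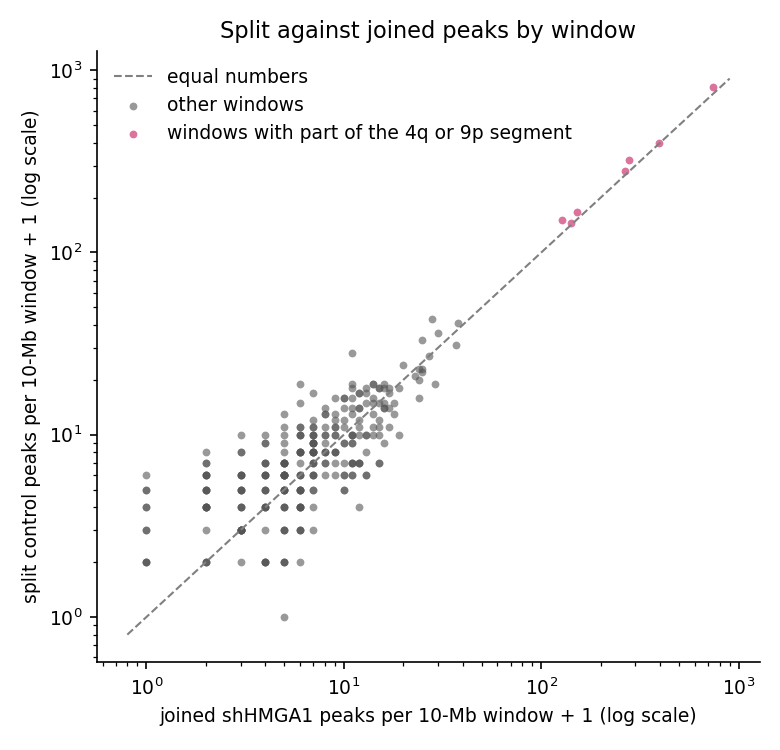
Split control peaks against joined shHMGA1 peaks in each 10-Mb window with a member, both plus 1 on log scales, with the line of equal numbers. Windows follow the line across the range, and those of the 4q and 9p segments lie at its upper end.

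In a pair of regions where the lists differ in peak number, members were somewhat more frequent than elsewhere outside the dense segments. On distal 11q (chromosome 11 from 121200001 to 135006516), where shHMGA1 has fewer peaks, there were 45 split and 29 joined peaks. These were 3.81% of 1180 control and 3.79% of 765 shHMGA1 peaks. On 1p (chromosome 1 from 32400001 to 46800000), where shHMGA1 has more peaks, there were 43 split and 42 joined peaks, 4.40% of 977 and 3.52% of 1192. Their split shares, 60.8% (49.4 to 71.1) and 50.6% (40.2 to 61.0), both include the genome value.

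Chromosome bands of 24 blood cell regulators and chromatin genes held members mostly at 9p24.1. That band, home of the kinase gene JAK2, held 262 split and 264 joined peaks, 13.9% of its control and 14.8% of its shHMGA1 peaks. It lies within the dense 9p segment, where the rates as a whole were higher, at 15.5% and 15.2%. The other 23 bands together held 99 split and 88 joined peaks, 2.89% of their control and 2.78% of their shHMGA1 peaks. Outside the dense segments these shares were 2.28% and 2.38%. Among all 24 bands, 7 held more split, 9 more joined and 8 equal numbers, of which 2 held none. The band of the ETS factor FLI1, 11q24.3, held 26 split and 12 joined peaks (68.4% split, interval 52.5 to 80.9), or 5.54% of its control and 3.79% of its shHMGA1 peaks. This band is part of the distal 11q region described above, and it held 469 control against 317 shHMGA1 peaks. Its members are thus counted in both places. The band of the haematopoietic regulator TAL1, 1p33, held 14 and 11 (6.06% and 5.34%). That of the granulocyte growth factor receptor CSF3R, 1p34.3, is part of the 1p region described above and held 14 and 17 (4.52% and 4.04%). At 3q21.3, the band of the stem and progenitor cell regulator GATA2, 0 of 95 control peaks were split and 2 of 94 shHMGA1 peaks joined (2.13%). At 6p21.31, the band of HMGA1 itself, 1 of 113 control peaks was split (0.88%) and 0 of 112 shHMGA1 peaks joined. Counts this small do not set these bands apart from the shares outside the dense segments. These are counts over entire bands, not at the genes.

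From unstained to darkest bands, Giemsa staining, which marks gene-poor DNA dark, made little difference outside the dense segments. In unstained bands 2.37% of control peaks were split and 2.54% of shHMGA1 peaks joined, and in the darkest bands 2.17% and 2.29%. Centromeric bands had the highest rates, 50 split peaks (4.42%) and 54 joined peaks (5.52%). Variable bands came next, with 20 (3.86%) and 19 (4.35%). In bands of middle stain 265 peaks were split and 197 joined, a split share of 57.4% (52.8 to 61.8) and the only stain class outside the segments whose interval lay above the genome value. Intervals of split shares, here and above, were not adjusted for the many classes, bands, chromosomes and windows compared.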

How the data were processed

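ATAC-seq was performed on 6 samples in 2 groups of 3, and 1 peak list per group was used. Tagmentation used 50000 cells and 2 µl of Tn5 (45 min, 37 °C), per the labels' protocols. Per the submitters' processing notes, the authors called peaks with Genrich on hg19; its version and settings, the aligner and the pooling of samples are not stated in these sources. The deposited files give a summit −log10 p, a signal (area under the significance curve) and a score per peak; only positions, summits and the −log10 p were used here. The joining distance and the threshold of the caller decide directly whether a region is 1 peak or several. Lists were compared with bedtools 2.31.1 (at least 1 bp), using numpy 2.4.6, pandas 2.3.3 and scipy 1.17.1 under Python 3.11.15, and drawn with matplotlib 3.10.9. Overlap counts were tested on simulated lists. Regions were placed by summit in hg19 bands from circlize. Named regions were the 5 of each class with most pieces, the longest gap and the highest summit; windows were the 3 with the highest and the 3 with the lowest split share. Members, segments, blocks and gene bands were chosen with earlier results of these data known. No replicate test was possible, and read depth is unknown. The band of 1 further listed gene is not reported here.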

Additional observations from a re-analysis of the deposited data

How the results depend on the processing

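The split share of members was above 50% under each alternative tried, while the numbers moved by over 1.5 times with several. Pieces overlapping by at least 50 bp left 3.48% of control peaks split and 3.57% of shHMGA1 peaks joined, and 50% of each piece inside left 2.56% and 2.41% (split share 54.5%). Keeping peaks from a summit −log10 p of 5.23, the median of both lists together, left 1127 split and 1083 joined (1.79% and 1.97%). Their split share was 51.0%, with a Wilson interval of 48.9 to 53.1, which includes equal numbers. With the 55465 most significant peaks of both lists there were 1115 and 848 (2.01% and 1.53%, 56.8%). Merging within 150 bp left 2941 and 2284 (2.50% and 2.18%, 56.3%), and within 300 bp 2333 and 1741 (2.08% and 1.74%, 57.3%), with the shortest gaps removed by construction (median gaps 272 and 266 bp, then 489 and 478 bp). Without the dense segments there were 2376 and 2184 (2.28% and 2.38%). Adding chromosome X, or leaving out centromeric, variable and stalk bands, moved these 3 values by less than their intervals. The share of members in the dense segments was 38.9 to 49.9% for split and 42.7 to 55.5% for joined peaks. Control peaks lay across 48.3 to 51.9% of short shHMGA1 gaps and shHMGA1 peaks across 36.4 to 40.2% of short control gaps. The analysis of gaps, and the one without centromeric bands, were chosen after seeing the data. No paired analysis was possible because the 3 samples of a group share 1 list, and for the same reason no replicate was left out. Unknown depth limits every count of weak pieces. The cause of these changes was not tested.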
